A study of Homo sapiens with 15 samples.

Results

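The 9 genes described here encode subunits of the endoplasmic reticulum membrane protein complex (EMC): EMC1, EMC2, EMC3, EMC4, EMC6, EMC7, EMC8, EMC9 and EMC10. They were taken by symbol and are 9 of the 56624 symbols in the table. The group was chosen by the measured TPM of EMC10 in the IDH2R140Q libraries, so that level is given as a description with no test, and the other 8 subunits were included because they belong to the same complex. Gene expression had been measured by poly(A) RNA sequencing in TF-1, an established human erythroleukaemia cell line that depends on cytokine for growth. There were 15 libraries in 5 groups of 3: Parental TF-1 and 4 base-edited lines that carry IDH1R132H, IDH2R140Q, IDH2R140W or IDH2R172K, mutations that give the 2-oxoglutarate-producing isocitrate dehydrogenases a different product. The medium of Parental cells held GM-CSF at 2 ng/ml and that of the edited lines held none, so the edit and the absence of the cytokine cannot be told apart in any comparison with Parental. The labels do not say whether an edited line is 1 clone, nor whether the 3 libraries of a group came from separate cultures, so a p-value here reflects spread among libraries that could be technical alone.

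The EMC sits in the membrane of the endoplasmic reticulum and inserts membrane proteins into it, chiefly tail-anchored proteins and the transmembrane segments of multipass proteins such as receptors and transporters. EMC3, a relative of the bacterial insertase YidC, forms the insertase core with EMC6 and MMGT1 (also called EMC5). EMC2 is a cytosolic scaffold that holds EMC8 or its paralogue EMC9, which take the same place in the complex. EMC1, EMC7 and EMC10 have large domains in the lumen, where EMC1 is the main scaffold, and EMC4 is a membrane subunit that faces the cytosol.

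Expression is given as TPM, a relative abundance that corrects for transcript length and so allows levels to be compared between genes. Every column summed to between 999972 and 999985. The depth of the libraries is unknown, so no detection limit can be given for a value of 0. All 9 members stood on 1 row each and passed the filter on low values (at least 1 TPM in at least 3 libraries), as did 14881 genes in all. Of 8 markers of TF-1 cells, 6 were at 1 TPM or more in every library. Their summed level was 480.87 to 576.38 TPM in Parental and 703.1 to 814.38 in IDH2R140W. It was higher in IDH2R140Q (930.16 to 933.32), IDH1R132H (963.91 to 977.63) and IDH2R172K (1053.12 to 1077.14). The markers GATA1 and CSF2RA were listed at 0 in all. GATA1 stood on 2 rows. Of 8 markers of other cell types, 3 reached 1 TPM in some library, and their summed level was highest in Parental (61.27 to 86.78 TPM) and IDH2R172K (51.2 to 59.17 TPM). It was 30.7 to 37.78 TPM for IDH1R132H, 8.2 to 11.46 for IDH2R140W and lowest, 1.33 to 4.74, for IDH2R140Q. The marker with the highest level was the T cell receptor component gene CD3D (0.45 to 82.67 TPM over all libraries), while CD3E stayed at or under 0.2 TPM. The part of these differences in the results below was not tested. In bulk RNA, fewer cells of a type and less RNA per cell cannot be told apart. The 89 ribosomal protein symbols took 13.7% to 18.4% of the TPM in 13 libraries, and 21.0% in Parental replicate 2 and 21.9% in IDH2R140W replicate 3. These 2 libraries were left out together in an added alternative.

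EMC10 (ENSG00000161671) lies on the plus strand at chr19:50476400-50490870 in GRCh38 (GENCODE 29), and its first bases overlap the 5′ end of FAM71E1 on the opposite strand. RefSeq (GRCh38.p14) places the start 107 bases further in, at 50476507. A stretch of 145 bases that runs up to the GENCODE start (chr19:50476257-50476401, plus strand, RefSeq promoter table) is shown because EMC10 is the subunit whose transcript was near 0 in 1 line. The capitals mark the letters TGACGTCA, the palindromic cyclic AMP response element.

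EMC10 promoter: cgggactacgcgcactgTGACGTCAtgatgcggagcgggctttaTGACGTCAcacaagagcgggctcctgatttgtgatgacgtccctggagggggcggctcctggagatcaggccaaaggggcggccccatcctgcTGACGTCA

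These letters occur 3 times, 233, 206 and 113 bases before the RefSeq start, and the third match spans the GENCODE start. They were searched because they stood out when this sequence was read, so the count is a description. They read the same on either strand. Over windows of 300 bases (250 before each RefSeq start to 50 after it), 540 of 27305 RefSeq promoters (1.98%) hold them at least once, 18 (0.0659%) at least 2 times and 1 (0.00366%), that of EMC10, 3 times. The shorter TGACG, counted on both strands and therefore 2 times within each palindrome, occurs 8 times in the EMC10 window, 1 time at EMC4 and not at the other 6 members with a promoter in the table. A share of 25.0% of all promoters hold TGACG at least once. A match of letters does not by itself show a binding site, and a link to the expression values was not tested.

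EMC10 transcripts were near 0 in the IDH2R140Q line and present in the other 4 groups. In the IDH2R140Q libraries EMC10 was listed at 0, 0.15 and 0 TPM. In Parental it was at 34.77, 28.23 and 34.05 TPM (32.4 ± 3.59, SD, n = 3). The IDH1R132H line had 33.22, 32.5 and 34.26 TPM (33.3 ± 0.885, SD, n = 3). The IDH2R140W line had 55.47, 56.34 and 48.82 TPM (53.5 ± 4.11, SD, n = 3), and the IDH2R172K line 50.3, 46.18 and 48.47 TPM (48.3 ± 2.06, SD, n = 3). The lowest of the 12 libraries outside IDH2R140Q was Parental replicate 2, and no IDH2R140Q library came near it. No fold is given against a group that is listed at 0 in 2 of 3 libraries.

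Among the other 4 groups the EMC10 levels formed a lower pair, Parental and IDH1R132H, and a higher pair, IDH2R140W and IDH2R172K, with no overlap between the pairs. Differences were tested with limma on log2(TPM + 1), with Benjamini-Hochberg adjustment over all 14881 genes. EMC10 was 1.64-fold higher in IDH2R140W than in Parental (difference 0.71 ± 0.10, SE, on the log2(TPM + 1) scale, adjusted p = 0.000143). It was 1.48-fold higher in IDH2R172K than in Parental (0.57 ± 0.10, SE, adjusted p = 0.000517). Both rises were seen in 3 of 3 libraries. With a pseudocount of 0.1 in place of 1 the differences were 0.73 and 0.58 and no longer passed (adjusted p = 0.0571 and 0.0922), while the fits of only the 2 groups compared, which hold no IDH2R140Q library, gave 0.0144 and 0.00896. IDH1R132H did not differ detectably from Parental (0.05 ± 0.10, SE, adjusted p = 0.734), and neither did IDH2R140W from IDH2R172K (0.14 ± 0.10, SE, adjusted p = 0.309). The difference between IDH2R140W and IDH2R172K passed after median-ratio scaling (0.25, adjusted p = 0.0244) and after quantile normalisation (0.26, adjusted p = 0.0106).

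**Figure D1:**
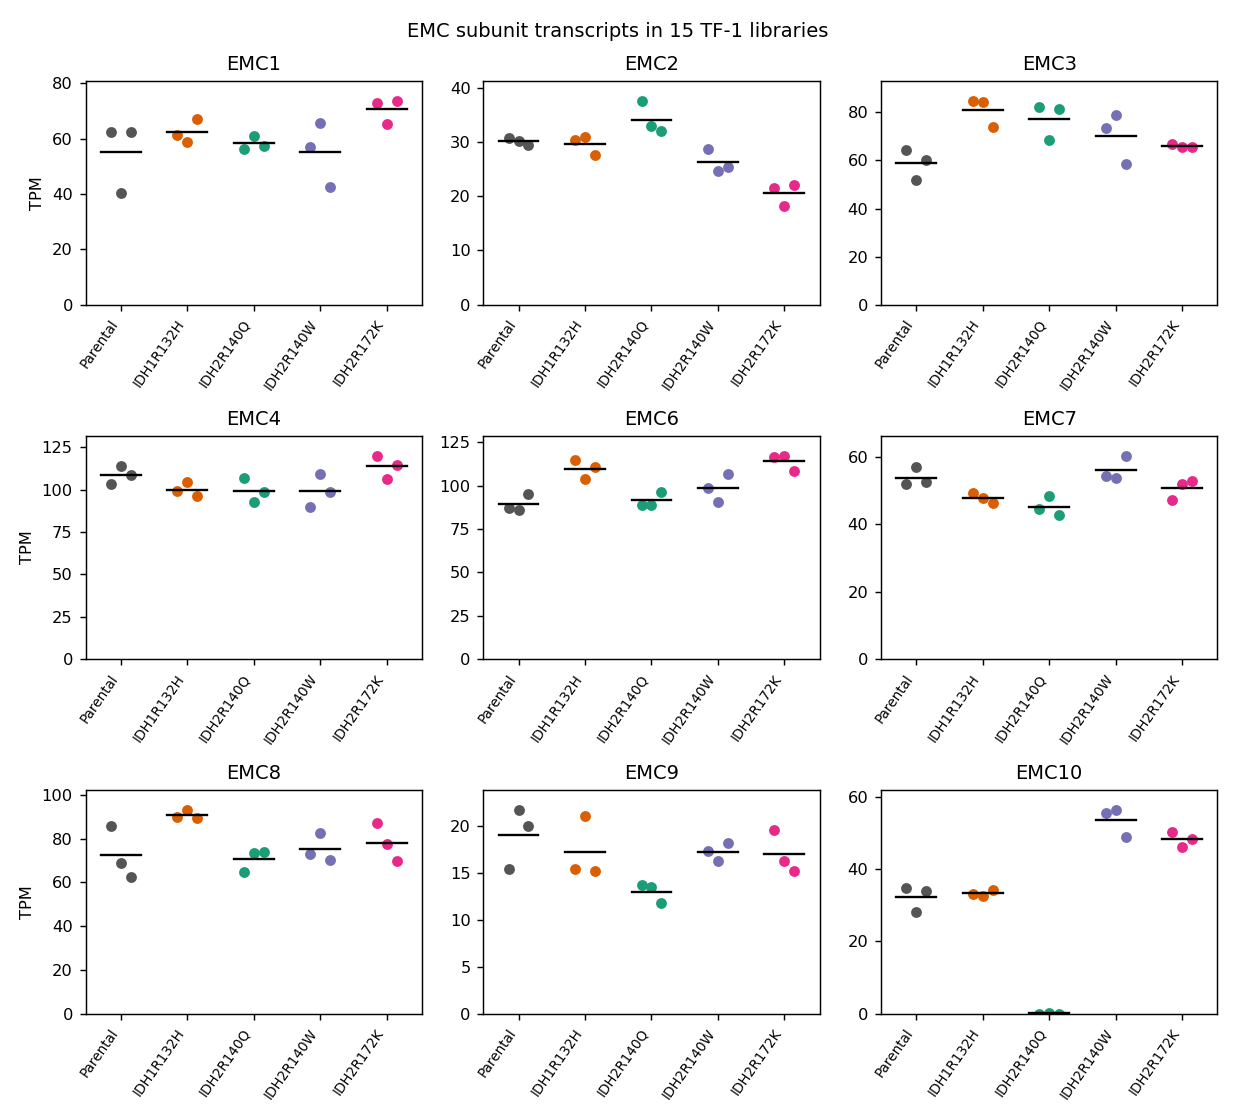
TPM of the 9 EMC subunits in each library (points) and the group mean (bar), 3 libraries per group, each panel with its own linear axis from 0. EMC10 lies at 0 to 0.15 TPM in the 3 IDH2R140Q libraries and at 28.23 to 56.34 TPM in the other 12, while the other 8 subunits stay above 11 TPM in all 15 libraries.

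The pattern of EMC10, under 1 TPM in the 3 libraries of 1 group and at 10 TPM or more in the 12 others, was shared by few symbols. In IDH2R140Q it held for 2 of the 6650 symbols at 10 TPM or more in the other 12 libraries: EMC10 and RP11-462G2.1, a symbol with no position in the tables used here. RP11-462G2.1 was listed at 0, 0.27 and 0 TPM in IDH2R140Q and lay between 10.66 and 29.18 TPM in the others. The same count was 1 of 6722 symbols for IDH2R172K, which was CYTL1, a cytokine-like protein gene, at 0.41, 0.68 and 0.74 TPM. It was 0 of 6858 for Parental, 0 of 6685 for IDH1R132H and 0 of 6755 for IDH2R140W.

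**Figure D2:**
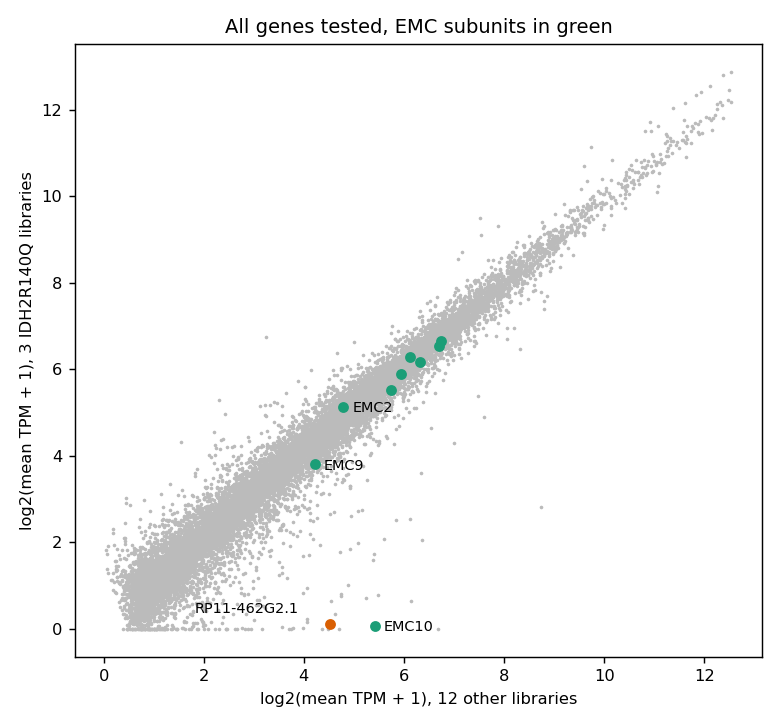
Mean level of each of the 14881 genes tested in the 3 IDH2R140Q libraries against the mean of the 12 other libraries, both as log2(mean TPM + 1), with EMC subunits in green and RP11-462G2.1 in orange. The other 8 subunits lie on the diagonal band, and EMC10 lies at the bottom edge with RP11-462G2.1 to its left.

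The 5 genes whose log2(TPM + 1) followed EMC10 most closely over the 15 libraries, with at least 10 TPM in their highest group, were BEX2 (Pearson r 0.968), RP11-462G2.1 (0.964), SRRM2 (0.957), CDK1 (0.955) and ADORA2A (0.955). All were lowest in IDH2R140Q. SRRM2, a splicing speckle protein gene on chromosome 16, was at 110.1 ± 2.02 TPM in IDH2R140Q and 202.9 ± 10.7 in Parental (SD, n = 3 each). CDK1, the mitotic kinase gene on chromosome 10, was at 53.3 ± 3.22 and 113.0 ± 5.74 TPM. BEX2, on chromosome X, was at 15.2 ± 0.813 and 35.2 ± 4.19 TPM, and ADORA2A, an adenosine receptor gene on chromosome 22, at 2.98 ± 0.803 and 9.43 ± 0.795 TPM. The likeness rested on the 3 IDH2R140Q libraries. Over the other 12 libraries r was 0.22 for BEX2, -0.21 for RP11-462G2.1, 0.12 for SRRM2, -0.34 for CDK1 and 0.59 for ADORA2A. The libraries of a group share a line, so the 15 points are not independent. Within the complex, r with EMC10 over 15 libraries ran from -0.63 for EMC2 to 0.67 for EMC9, and without IDH2R140Q the value for EMC9 was -0.3 while that for EMC2 was again -0.63.

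The nearest well expressed genes on either side of EMC10 on chromosome 19 did not differ detectably between IDH2R140Q and Parental. JOSD2, a deubiquitinase gene 15128 bases to the right, was at 15.6 ± 1.88 TPM in IDH2R140Q and 16.5 ± 3.12 in Parental (SD, n = 3 each, adjusted p = 0.761). POLD1, the catalytic subunit gene of DNA polymerase delta on its left, was at 125.49, 126.09 and 125.92 TPM in IDH2R140Q and at 129.07, 133.36 and 123.26 in Parental (adjusted p = 0.711). The log2 differences of these 2 genes were -0.07 and -0.03. NR1H2, the liver X receptor beta gene on the same side, was higher in IDH2R140Q (98.7 ± 4.25 TPM) than in Parental (63.3 ± 2.64, SD, n = 3 each, log2 difference 0.63, adjusted p = 7.19e-07). LRRC4B, a low synaptic adhesion gene 26022 bases to the right, was also higher (3.32 ± 0.561 against 1.65 ± 0.428 TPM, log2 difference 0.71, adjusted p = 0.00667). Both were higher than in Parental in the other 3 lines too, NR1H2 by 0.73 in IDH1R132H, 1.09 in IDH2R140W and 0.91 in IDH2R172K, and LRRC4B by 2.08, 1.28 and 1.29, with all 6 differences passing. SYT3 (-0.02, adjusted p = 0.96) and C19orf81 (-0.33, adjusted p = 0.078) did not pass. FAM71E1, which overlaps the start of EMC10, was listed at 0, 0.36 and 0 TPM in IDH2R140Q and at 0.95, 0.41 and 0.56 TPM in Parental (adjusted p = 0.169), levels too low to compare. Of 17 other genes tested within 500 kb, 5 passed as higher and 1 as lower in IDH2R140Q against Parental, where 33.3% of all genes tested passed as higher and 11.1% as lower. None passed as lower at 2-fold. The median of these 17 differences was -0.03, and that of the 1018 genes tested on chromosome 19 was 0.26. In lines where EMC10 was present these 2 medians were 0.12 and 0.33 (IDH1R132H), -0.04 and 0.13 (IDH2R140W), and 0.42 and 0.33 (IDH2R172K).

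**Figure D3:**
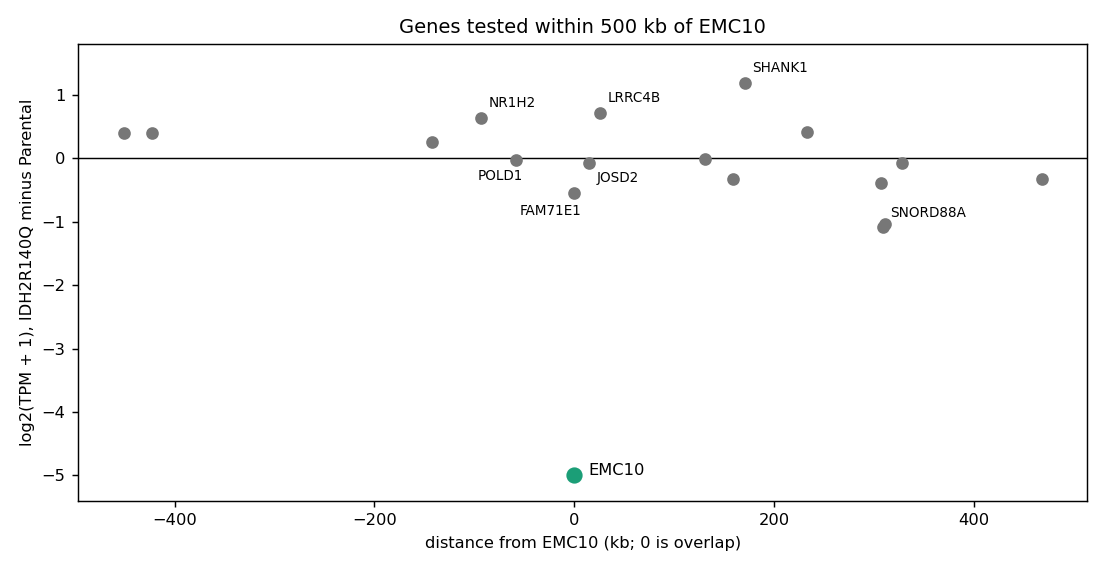
Difference in log2(TPM + 1) between IDH2R140Q and Parental for EMC10 (green) and the 17 other genes tested within 500 kb (grey), against distance from EMC10 in kb, with overlap at 0. The grey points run from -1.09 (SNORD88A) to 1.19 (SHANK1), and the depth of the EMC10 point is set by the pseudocount of 1, since 2 of its 3 IDH2R140Q values are 0.

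Among the other 8 subunits no difference from Parental reached 2-fold in any line, where 10.8% (IDH1R132H), 10% (IDH2R140Q), 4.78% (IDH2R140W) and 9.31% (IDH2R172K) of all genes tested passed at 2-fold. In IDH1R132H, 3 of 9 members rose and none fell, where 43.8% of all genes tested passed, 30.1% as higher and 13.7% as lower. In IDH2R140Q, 1 of the 8 members tested rose and 2 fell, where 44.4% of all genes passed, 33.3% as higher and 11.1% as lower. In IDH2R140W, 1 of 9 rose, which was EMC10, where 24% passed, 13.3% as higher and 10.7% as lower. In IDH2R172K, 2 of 9 rose and 1 fell, where 39.1% passed, 25.5% as higher and 13.5% as lower. The libraries of a line and of Parental did not overlap for 4 of 9 members in IDH1R132H (52.4% of all genes), 4 of 8 in IDH2R140Q (53.9%), 2 of 9 in IDH2R140W (31.4%) and 5 of 9 in IDH2R172K (47.9%). The 4 comparisons share the Parental libraries. The median difference over the 8 subunits was 0.09, 0.0, 0.03 and 0.08 in the 4 lines in that order. The median over all genes tested was 0.16, 0.23, 0.03 and 0.13, so the members' medians relative to it were -0.08, -0.22, 0.0 and -0.05. Because of that shift the direction of calls depended on the scale. After median-ratio scaling, 1 member rose (EMC3) and 2 fell (EMC4 and EMC7) in IDH1R132H, and none rose and 3 fell (EMC4, EMC7 and EMC9) in IDH2R140Q. Of all calls, 68.8% were rises in IDH1R132H as deposited and 50.9% after that scaling, and in IDH2R140Q 75.0% and 49.3%. In IDH2R172K these shares were 65.4% and 49.4%.

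**Figure D4:**
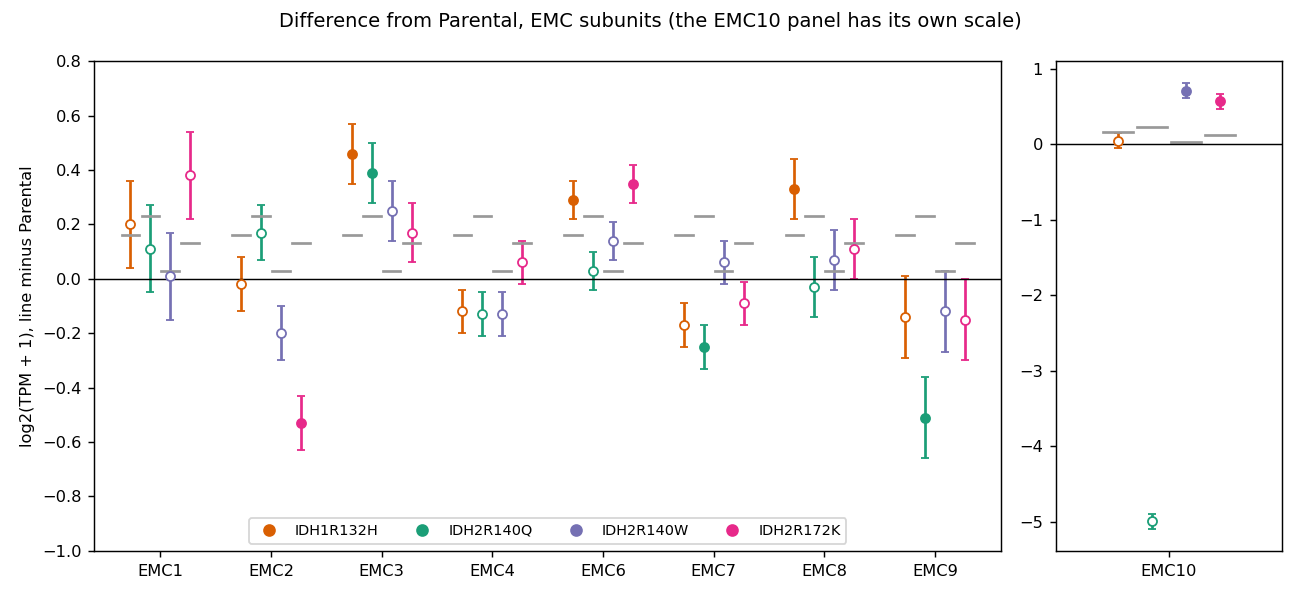
Difference from Parental in log2(TPM + 1) for each subunit and edited line, with SE bars, where filled points passed an adjusted p of 0.05, open points did not pass or were not tested, and grey ticks mark the median over all genes. EMC3, EMC6 and EMC8 have filled points above 0, EMC2, EMC7 and EMC9 below 0, and EMC10, in its own panel, stands at 0.71 in IDH2R140W and 0.57 in IDH2R172K, with the IDH2R140Q point untested.

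Of the insertase core, EMC3 (ENSG00000125037, chr3:9962537-10011116, minus strand) rose in 2 lines. It was at 64.32, 52.01 and 60.05 TPM in Parental. It reached 84.58, 84.47 and 73.89 TPM in IDH1R132H (difference 0.46 ± 0.11, SE, adjusted p = 0.00471). In IDH2R140Q it was at 82.24, 68.65 and 81.27 TPM (0.39, adjusted p = 0.0124). Neither group overlapped Parental. The difference in IDH2R140Q fell to 0.13 after median-ratio scaling (adjusted p = 0.212), and that in IDH1R132H was called under every alternative tried. In IDH2R140W the values were 73.51, 78.92 and 58.56 TPM and did not pass (0.25, adjusted p = 0.134), and without the low IDH2R140W replicate 3 they did (0.37, adjusted p = 0.0166). In IDH2R172K EMC3 was at 66.96, 65.57 and 65.8 TPM (0.17, adjusted p = 0.248).

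EMC6 (ENSG00000127774, chr17:3668815-3669668, plus strand), the small partner of EMC3, was at 87.34, 85.87 and 95.55 TPM in Parental. It was at 114.78, 104.12 and 110.76 TPM in IDH1R132H (0.29 ± 0.07, SE, adjusted p = 0.0052) and at 116.7, 117.27 and 108.77 TPM in IDH2R172K (0.35, adjusted p = 0.00185). These 2 lines rose with no overlap with Parental. After median-ratio scaling the differences were 0.10 (adjusted p = 0.464) and 0.19 (adjusted p = 0.143), and neither passed. In IDH2R140Q EMC6 stayed at 89.05, 89.04 and 96.54 TPM and in IDH2R140W at 98.57, 90.83 and 106.65 TPM, values that overlapped those of Parental.

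MMGT1, the remaining core subunit, is not among the 9 genes. It stood on 2 rows of the table and was listed at 0 in all 15 libraries. Of 1118 protein-coding symbols on more than 1 row, 757 (67.7%) were listed at 0 in every library, compared with 1354 of 17248 (7.85%) on 1 row. The listed 0 of MMGT1 is therefore not read here as absence, and its cause was not tested.

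Of the cytosolic subunits, EMC2 (ENSG00000104412, on chromosome 8) fell in IDH2R172K. It was at 30.72, 30.12 and 29.42 TPM in Parental and at 21.43, 18.11 and 22.13 TPM in IDH2R172K (difference -0.53 ± 0.10, SE, adjusted p = 0.00063). This was called under every alternative tried. In IDH2R140Q EMC2 was at 37.47, 32.93 and 31.92 TPM and in IDH2R140W at 28.71, 24.55 and 25.37 TPM. These values lay above and below all Parental libraries, respectively, and neither difference passed (0.17, adjusted p = 0.167, and -0.2, adjusted p = 0.173). The IDH1R132H libraries, at 30.41, 30.84 and 27.58 TPM, overlapped Parental.

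EMC8 (ENSG00000131148, chr16:85771758-85799608, minus strand), the more abundant of the 2 interchangeable paralogues, was at 85.83, 68.88 and 62.5 TPM in Parental and at 89.73, 92.91 and 89.38 TPM in IDH1R132H (0.33 ± 0.11, SE, adjusted p = 0.0275). This call was lost under 10 of 14 alternatives, with adjusted p between 0.0569 and 0.339, among them the omission of Parental replicate 2 or 3 or of any 1 IDH1R132H library. Its 5′ end overlaps COX4I1 on the opposite strand, a respiratory chain gene at 685.31 to 924.83 TPM, and the part of reads from that gene was not tested. The other lines had 64.6 to 87.15 TPM.

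EMC9 (ENSG00000100908, chr14:24138959-24141588, minus strand) was the lowest of the other 8 subunits. It was at 15.42, 21.63 and 20.01 TPM in Parental and at 13.72, 13.46 and 11.77 TPM in IDH2R140Q (-0.51 ± 0.15, SE, adjusted p = 0.0133). The groups did not overlap, and without Parental replicate 2 the difference was -0.41 (adjusted p = 0.0555). The 3′ end of EMC9, at 24138959, overlaps only the last bases of PSME1, which ends at 24138967 on the opposite strand. PSME1 was at 167.83 to 301.84 TPM, and the part of reads from it was not tested. The ratio of EMC9 to EMC8 was 0.271 ± 0.0792 in Parental. It was 0.189 ± 0.0326 for IDH1R132H, 0.185 ± 0.0265 for IDH2R140Q, 0.23 ± 0.0315 for IDH2R140W and 0.217 ± 0.008 for IDH2R172K (SD, n = 3 each). The log2 ratio of EMC9 to EMC8 did not differ detectably from Parental in any line (-0.47, adjusted p = 0.134; -0.48, 0.125; -0.19, 0.642; and -0.26, 0.413). Parental replicate 1, with high EMC8 and low EMC9, stood apart. Without it the ratio passed as lower in IDH1R132H (-0.74, adjusted p = 0.0233) and IDH2R140Q (-0.75, adjusted p = 0.0221).

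Of the lumenal subunits besides EMC10, EMC7 (ENSG00000134153, chr15:34084017-34101948, minus strand) fell in IDH2R140Q. It was at 52.11, 57.13 and 52.55 TPM in Parental and at 44.62, 48.42 and 42.83 TPM in IDH2R140Q (difference -0.25 ± 0.08, SE, adjusted p = 0.0177). After median-ratio scaling, which removes the shift of all genes, it was lower in IDH1R132H as well (-0.36, adjusted p = 0.0169), where the libraries as deposited had 49.29, 47.99 and 46.23 TPM (-0.17, adjusted p = 0.0899). The IDH2R140W line had 54.34, 53.91 and 60.38 TPM and the IDH2R172K line 47.24, 52.04 and 52.93 TPM, and both overlapped Parental. Without Parental replicate 2 none of the 3 calls in IDH2R140Q passed, with adjusted p of 0.0523 for EMC3, 0.0582 for EMC7 and 0.0555 for EMC9, while without that library and IDH2R140W replicate 3 together all 3 passed. Without IDH2R140Q replicate 1, EMC3 (adjusted p = 0.0519) and EMC7 (0.0537) did not pass, and without IDH2R140Q replicate 3, EMC7 (0.0736) and EMC9 (0.0555) did not.

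EMC1 (ENSG00000127463, chr1:19215664-19251552, minus strand), the large lumenal scaffold, passed in none of 10 comparisons as deposited. It was at 62.5, 40.53 and 62.3 TPM in Parental and at 56.91, 65.76 and 42.73 TPM in IDH2R140W. The low library of each group was the one with the high ribosomal protein share. In IDH2R172K EMC1 was at 73.1, 65.47 and 73.52 TPM, above all Parental libraries (0.38 ± 0.16, SE, adjusted p = 0.079). Without Parental replicate 1 this passed (0.48, adjusted p = 0.0446). EMC1 was also lower in IDH2R140Q than in IDH2R172K after median-ratio scaling (-0.38, adjusted p = 0.0267) and with only these 2 groups compared (-0.27, adjusted p = 0.0118), and lower in IDH2R140W than in IDH2R172K without IDH2R140W replicate 2 (-0.51, adjusted p = 0.0385). EMC1 was at 58.81 to 67.31 TPM in IDH1R132H and at 56.47 to 61 TPM in IDH2R140Q.

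EMC4 (ENSG00000128463, chr15:34224999-34230156, plus strand), the membrane subunit, was the steadiest of the 9, with 89.67 to 120.02 TPM over all 15 libraries and a coefficient of variation of 8.08%. It passed in none of 10 comparisons as deposited. After median-ratio scaling it was lower than in Parental in IDH1R132H (-0.31, adjusted p = 0.0264) and IDH2R140Q (-0.39, adjusted p = 0.00909).

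By mean over 15 libraries the order was EMC4 (104.2 TPM), EMC6 (100.8), EMC8 (77.4), EMC3 (70.7), EMC1 (60.4), EMC7 (50.8), EMC10 (33.5), EMC2 (28.1) and EMC9 (16.7). EMC6 exceeded EMC8, and EMC2 exceeded EMC9, in 15 of 15 libraries. The other neighbours in this order changed places in some libraries, and EMC4 exceeded EMC6 in only 10 of 15. EMC10 ranked 7 of 9 in the 4 groups outside IDH2R140Q and 9 of 9 in IDH2R140Q. Outside EMC10 the ratio of the highest to the lowest group mean ran from 1.15 for EMC4 to 1.66 for EMC2. The summed TPM of the 8 other subunits was 489.7 ± 8.47 in IDH2R140Q and 487.6 ± 16.1 in Parental (SD, n = 3 each), with overlapping libraries. It was 538.7 ± 10.2 TPM in IDH1R132H, 531.2 ± 18.3 in IDH2R172K and 498.4 ± 21.4 in IDH2R140W.

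Between edited lines, which were all grown without GM-CSF, 2 members passed in each of the 6 comparisons, 12 calls in all, of 9 members tested where IDH2R140Q was not involved and of 8 where it was. The share of all genes that passed was 28.5% for IDH1R132H against IDH2R140Q, 35.6% against IDH2R140W and 32.5% against IDH2R172K. It was 32.9% for IDH2R140Q against IDH2R140W, 31% for IDH2R140Q against IDH2R172K and 31.2% for IDH2R140W against IDH2R172K. The 6 comparisons reuse the libraries of the same 4 lines, so the 12 calls are not independent. EMC2 passed in 4 of these comparisons, EMC6 in 3, EMC7 and EMC10 in 2 each and EMC8 in 1. EMC1, EMC3, EMC4 and EMC9 passed in none. Libraries did not overlap for 4 of 8 members in IDH1R132H against IDH2R140Q (52.4% of all genes), 3 of 9 against IDH2R140W (49.3%) and 5 of 9 against IDH2R172K (51.9%). They did not overlap for 3 of 8 in IDH2R140Q against IDH2R140W (48.9%), 5 of 8 against IDH2R172K (51.2%), and 3 of 9 in IDH2R140W against IDH2R172K (44.1%). The largest of these differences that was tested was that of EMC2 between IDH2R140Q and IDH2R172K, 0.71 (adjusted p = 7.25e-05).

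Other pathways of membrane protein insertion and folding were read from fixed lists in the IDH2R140Q line, where EMC10 was near 0. No member of any list changed by 2-fold, so the genes named here were chosen after their values were seen. Beside the counts below, 33.3% of all genes tested rose and 11.1% fell in this line as deposited, 19.9% and 20.4% after median-ratio scaling, and 20.5% and 19.1% after quantile normalisation. Of the signal recognition particle and its receptor, which bring ribosomes to the membrane, 3 of 8 genes rose and none fell against Parental. Of the SEC61 channel and its TRAP partners, 3 of 9 rose and none fell, among them SEC61A1, the channel's main subunit (216.6 ± 2.58 against 162.2 ± 16.5 TPM, log2 difference 0.42, adjusted p = 0.000396). SEC61A1 was higher in the other 3 lines as well, by 0.63 in IDH1R132H, 0.35 in IDH2R140W and 0.54 in IDH2R172K, and each passed. After median-ratio scaling, 2 genes of each list were lower, and none of the first and 1 of the second were higher. After quantile normalisation, 1 gene of the first list was higher and none lower, and 1 of the second was higher and 2 were lower.

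The GET pathway, a further route for tail-anchored proteins, had 1 rise and 3 falls among 6 genes tested, and the counts were the same under both scalings. ASNA1 (GET3), the targeting ATPase, was at 142.1 ± 2.99 TPM in IDH2R140Q and 90.5 ± 4.99 in Parental (log2 difference 0.65, adjusted p = 9.24e-07). GET4, of the complex that hands proteins to it, was at 60.6 ± 5.09 and 92.2 ± 11.9 TPM (-0.59, adjusted p = 0.00119), and its partners UBL4A (-0.29, adjusted p = 0.0116) and SGTA (-0.28, adjusted p = 0.00196) were lower as well. In the lines where EMC10 was not near 0, the same list had 1 rise and 3 falls in IDH2R140W (13.3% and 10.7% of all genes), 1 and 4 in IDH2R172K (25.5% and 13.5%), and 2 and 1 in IDH1R132H (30.1% and 13.7%). ASNA1 rose by 0.71 to 0.83 and GET4 fell in all of them. Of the multipass translocon, 2 of 9 genes rose and 1 fell, the calcium channel and translocon subunit gene TMCO1 (60.1 ± 2.34 against 92.2 ± 3.44 TPM, -0.61, adjusted p = 1.06e-05). TMCO1 fell in IDH2R140W (-0.24) and IDH2R172K (-0.29) too. After median-ratio scaling none of these 9 rose and 3 fell, while after quantile normalisation 2 rose and 2 fell.

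Of 19 chaperone and unfolded protein response genes tested, 9 rose and 4 fell in IDH2R140Q, while 3 rose and 6 fell after median-ratio scaling and 5 rose and 5 fell after quantile normalisation. HSPA5, the BiP chaperone gene that the response raises, was lower (304.9 ± 6.94 against 396.9 ± 3.78 TPM, -0.38, adjusted p = 1.34e-05), and so was ATF4, its translationally induced transcription factor (301.0 ± 4.26 against 413.4 ± 3.76 TPM, -0.46, adjusted p = 5.79e-06). DDIT3, the CHOP factor (14.9 ± 0.393 against 8.29 ± 1.48 TPM, 0.79, adjusted p = 8.18e-05), and ERN1, the IRE1 sensor (9.55 ± 1.19 against 4.55 ± 0.593 TPM, 0.93, adjusted p = 0.00102), were higher. Other lines showed such differences too. DDIT3 was higher in IDH1R132H (1.41), IDH2R140W (0.59) and IDH2R172K (0.79), and ERN1 likewise (1.21, 0.75 and 0.77), all passing. HSPA5 was also lower in IDH1R132H (-0.23) and IDH2R140W (-0.35). ATF4 was also lower in IDH2R140W (-0.22) and IDH2R172K (-0.79) and was higher in IDH1R132H (0.15). Of 15 genes of endoplasmic reticulum-associated degradation, 6 rose and 1 fell, and 2 rose and 2 fell after either scaling. Of 2 known EMC clients, SOAT1, which esterifies cholesterol, was higher (31.5 ± 2.14 against 16.9 ± 5.39 TPM, 0.91, adjusted p = 0.00953), and FDFT1, squalene synthase, was lower (250.1 ± 1.12 against 280.8 ± 17.6 TPM, -0.16, adjusted p = 0.0376). FDFT1 was lower by more in IDH2R140W (-0.73, adjusted p = 9.14e-07) and IDH2R172K (-0.55, adjusted p = 6.46e-06). EMC10 was highest in these lines, and a relation between FDFT1 and EMC10 was not tested. SOAT1 did not pass in IDH1R132H (0.41, adjusted p = 0.205), IDH2R140W (-0.06, adjusted p = 0.903) or IDH2R172K (-0.05, adjusted p = 0.887). Its difference in IDH2R140Q was smaller, 0.66, after median-ratio scaling (adjusted p = 0.0197). It was 0.64 after quantile normalisation (adjusted p = 0.0139) and 0.64 without Parental replicate 2 and IDH2R140W replicate 3 together. These errors are SD with n = 3. Transcript levels say nothing of the amount of the proteins.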

How the data were processed

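The authors deposited 1 table of TPM values for 15 libraries, made per the labels' protocols by poly(A) selection and a directional library kit. HTSeq, RSEM, DESeq2, STAR 2.7.3 and hg38 are listed, without their roles, by the submitters' processing notes. For the annotation release, strand setting and filters, the sources used here give nothing. Depth cannot be recovered from TPM, and the smallest value above 0 was 0.01. Of 63568 rows, 6 whose symbols were ambiguous dates were left out, and rows of 1 symbol were summed.

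Values were compared as log2(TPM + 1) with limma 3.58.1 in R 4.3.3, after the test had been run on simulated data. The model had 1 mean per group over all 15 libraries, a mean-variance trend and Benjamini-Hochberg adjustment over the 14881 genes that reached 1 TPM in 3 or more libraries. A gene passed at an adjusted p under 0.05, in 10 comparisons. EMC10 was not tested in any comparison with IDH2R140Q. Groups were taken from the genotype labels. With 3 libraries against 3 an exact permutation test of 1 gene cannot go below 0.1, so none was used. Named were all members, MMGT1, the 4 nearest tested genes on each side of EMC10 (1 of them is not reported here), the 5 genes most like it, genes absent in the same group alone, and pathway genes changed 2-fold, of which there were none, so the pathway genes named were chosen after their values were seen. The members and lists were chosen with earlier results of these data known. Alternatives were a pseudocount of 0.1, no filter or a minimum of 5 TPM, median-ratio scaling, quantile normalisation, a replicate block, fits of only the 2 groups compared, and leaving out each library. Promoter sequences came from RefSeq (8 of 9 members matched), and gene positions from GENCODE 29.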

Additional observations from a re-analysis of the deposited data

Results flagged for a closer look

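Differences between edited lines, which share the absence of GM-CSF, are given here because they passed the test of the difference itself (limma, difference on the log2(TPM + 1) scale, 12 calls). In each of them the 3 libraries of one line lay outside the range of the other. The calls were chosen by passing the test, which favours libraries that do not overlap, so this adds no separate support. Over all genes tested in these 6 comparisons, whether they passed or not, the share without overlap was 44.1% to 52.4%. That share is not a like comparison for chosen calls, and the share among genes that passed is not given here.

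EMC2 was higher in IDH2R140Q than in IDH2R172K (0.71, adjusted p = 7.25e-05) and than in IDH2R140W (0.37, adjusted p = 0.0105). It was higher in IDH1R132H than in IDH2R172K (0.51, adjusted p = 0.00108) and higher in IDH2R140W than in IDH2R172K (0.34, adjusted p = 0.0167). The EMC2 levels of the 4 lines thus ran from 34.1 ± 2.96 TPM in IDH2R140Q to 20.6 ± 2.15 in IDH2R172K (SD, n = 3). The difference between IDH2R140Q and IDH2R140W did not pass after median-ratio scaling or quantile normalisation, and the median of all genes differed by 0.19 between these lines. Without IDH2R140Q replicate 1 it had an adjusted p of 0.0559. The difference between IDH2R140W and IDH2R172K did not pass without IDH2R140W replicate 1 (0.0696), without IDH2R172K replicate 2 (0.0832) or with only these 2 groups compared (0.0795).

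EMC6 was higher in IDH1R132H than in IDH2R140Q (0.26, adjusted p = 0.0155), lower in IDH2R140Q than in IDH2R172K (-0.32, adjusted p = 0.00432) and lower in IDH2R140W than in IDH2R172K (-0.21, adjusted p = 0.0411). The last of these did not pass after either scaling, nor without IDH2R140W replicate 1 (adjusted p = 0.0796), IDH2R140W replicate 2 (0.16), IDH2R172K replicate 1 (0.112) or IDH2R172K replicate 2 (0.12). The first did not pass without IDH1R132H replicate 1 (0.0687), IDH2R140Q replicate 1 (0.0588) or IDH2R140Q replicate 2 (0.0574). EMC8 was higher in IDH1R132H than in IDH2R140Q (0.36, adjusted p = 0.0277), and this did not pass when each IDH1R132H library was left out in turn (0.0612 to 0.0806) or without IDH2R140Q replicate 1 (0.113).

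EMC7 was lower in IDH1R132H than in IDH2R140W (-0.23, adjusted p = 0.0329) and lower in IDH2R140Q than in IDH2R140W (-0.31, adjusted p = 0.00758). The former did not pass when each IDH1R132H library was left out in turn (0.0528 to 0.106) or without IDH2R140W replicate 3 (0.121). EMC10 was lower in IDH1R132H than in IDH2R140W (-0.67, adjusted p = 0.00016) and than in IDH2R172K (-0.52, adjusted p = 0.00121). With a pseudocount of 0.1 the EMC10 differences were -0.68 and -0.53, with adjusted p of 0.0577 and 0.142. Each of these 2 calls was kept under 12 of 13 alternatives.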

How the results depend on the processing

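The counts, ratios and EMC10 group levels had 216 values under alternatives. Of these, 184 stayed on the same side of the threshold or within the spread. Of 298 checks of the called members themselves, 245 kept the call and 53 lost it, and no direction reversed for any called member. A count could stay the same while its genes changed, as in IDH1R132H against Parental after median-ratio scaling. Counts of members that passed moved as follows, among others. In IDH1R132H against Parental, EMC8 was lost with no filter. In IDH2R172K against Parental, EMC10 was lost with a pseudocount of 0.1 and EMC6 after median-ratio scaling. In IDH2R140Q against Parental, 1 member was higher and 3 were lower after quantile normalisation. Against Parental, IDH2R140W went from 1 to 0 with a pseudocount of 0.1, and to 2 after quantile normalisation or without Parental replicate 2 and IDH2R140W replicate 3 together, a choice made after seeing the data. Leaving out 1 library gave 0 to 3 members in IDH2R140Q (3 as reported) and 1 to 2 in IDH2R140W. For IDH1R132H against IDH2R140Q it was 2 as reported, 1 with no filter and 0 to 2 with 1 library left out. For IDH1R132H against IDH2R140W it was 1 with a pseudocount of 0.1 and 1 to 2 with 1 library left out. For IDH1R132H against IDH2R172K it was 1 with a pseudocount of 0.1 and 4 with only the 2 groups compared. After either scaling, 2 members were higher and 1 was lower in that comparison. For IDH2R140Q against IDH2R140W it was 1 to 2 with 1 library left out. After either scaling it was 3 in that comparison, all lower (EMC6, EMC7 and EMC9). For IDH2R140Q against IDH2R172K it was 4 after median-ratio scaling, after quantile normalisation and with only the 2 groups compared. For IDH2R140W against IDH2R172K it was 1 with no filter, 0 with only the 2 groups compared and 0 to 3 with 1 library left out. The log2 ratio of EMC9 to EMC8 ranged from -0.74 to -0.33 in IDH1R132H and from -0.75 to -0.34 in IDH2R140Q with 1 library left out. EMC10 in IDH1R132H was at 31.9 TPM after median-ratio scaling and 31.6 after quantile normalisation (33.3 as deposited). With the replicate number as a block, 3, 3, 1 and 3 members passed against Parental in IDH1R132H, IDH2R140Q, IDH2R140W and IDH2R172K, as without the block. Deviations from the group mean had r from -0.285 to 0.223 in 30 pairs of libraries of the same number. They had r from -0.37 to 0.499 in 60 pairs of other numbers. Whether libraries of the same number were cultured or prepared together cannot be told from these values. Causes of these moves were not tested. TPM holds no depth, so a listed 0 has no detection limit.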
